A study of Homo sapiens with 55 samples.

Results

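SCL60 cells at 2 h of triptorelin were compared with SCL60 cells at 1 h of triptorelin, which asks which early transcripts were already lower in the second hour and which others came up in it. The members were all arrays labelled SCL60_Treated_2_h (4 arrays) and SCL60_Treated_1_h (4 arrays), 8 of the 55 arrays of the series, with every detected probe. SCL60 is a line of human embryonic kidney HEK293 cells in which the rat receptor for gonadotropin-releasing hormone (GnRHR) is stably transfected at a high level, and it is kept in G418. The 2 h group received 100 nM triptorelin, a GnRH receptor agonist, for 2 h, and the 1 h group received the same dose for 1 h; both grew in serum-containing medium on plates coated with Matrigel. The series further holds SCL60 cells at 0.5, 8 and 24 h of triptorelin, SCL60 cells given vehicle (a propylene glycol solution) for 1, 8 and 24 h or left at 0 h, and parental HEK293 cells. No vehicle arrays at 2 h were among the samples, so a change between 1 h and 2 h of triptorelin and a change of time or handling alone cannot be told apart here. The labels give 1 transfected line, a kidney-derived host and a rat receptor, and they do not say whether replicates were separate cultures. The p-values of the model over all 55 arrays rest on a spread between arrays pooled over 14 groups, not on these 8 arrays alone. That spread may be technical.

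GnRH receptors couple to Gq proteins, and agonist binding leads to calcium release, protein kinase C activity and activation of MAP kinases, ERK among them. The immediate early genes, such as FOS and EGR1, are transcribed from factors already present in the cell, and their transcripts and proteins are short-lived. The proteins they encode are themselves transcription factors or signalling inhibitors, and transcripts that appear after them are called secondary or delayed; in pituitary gonadotropes, a receptor of this kind controls the gonadotropin subunit genes, of which CGA encodes the alpha subunit.

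The 8 arrays had median raw intensities between 44 and 73 and between 11766 and 14120 probes detected at a detection p under 0.01. Array 4 of the 2 h group had 11766, the fewest of the 55 arrays. Replicates within the groups correlated at 0.973 to 0.991, and no arrays were identical. Each group held 2 arrays from each of 2 hybridisation batches. The labelling batches were not balanced: replicates 1 to 4 came from batches 1, 1, 2 and 2 at 2 h and from 3, 1, 2 and 2 at 1 h. Labelling batch 3 thus occurred at 1 h only. Among 10 HEK293 kidney and neural-type marker genes with a probe, 8 were detected on at least 1 array at 2 h and 9 at 1 h, with summed intensities of 9518 to 11985 at 2 h and 10960 to 12406 at 1 h; PAX2 was detected in neither group. Of the fibroblast markers 2 of 9 were detected (COL1A1 and PDGFRA), and of the blood cell markers 2 of 7 (CD14 and CD68). Of the gonadotrope genes, GNRHR, FSHB and LHB had probes that 0 of the 55 arrays detected; these probes are human, and the rat transgene was not measured by them.

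At 2 h, against 1 h, transcripts of several immediate early transcription factors fell, while those of several inhibitors of RAS and MAP kinase signalling, of a neuropeptide and a chemokine, and of CGA rose. FOS fell 5.59-fold, and DUSP1, whose product dephosphorylates MAP kinases, fell 4.74-fold; TAC1, which encodes the precursor of the neuropeptide substance P, rose 4.87-fold and the chemokine gene CXCL8 3.64-fold. A limma model over all arrays called 128 of 12793 tested genes and unnamed probes (1%), 55 that rose (0.43%) and 73 that fell (0.571%), at an adjusted p under 0.05. Of these, 21 rises and 27 falls were at least 2-fold. The median log2 difference of all genes tested was -0.02 with an SD of 0.28, and 690 genes and probes lay higher and 763 lower at an unadjusted p under 0.05. In 51 of the 55 rises and 70 of the 73 falls the 4 arrays at 2 h did not overlap the 4 arrays at 1 h, against 3.15% and 4.13% of everything tested. The sign of all 128 was the same in hybridisation batches 1 and 2 taken alone. The rises there had median log2 differences of 0.97 and 0.96, and the falls of -0.89 and -0.81. All 128 were chosen by their difference on these same arrays. The separation and the shared sign largely follow from that choice and are no separate support. Arrays with the same replicate number deviated together. Replicates 2, 3 and 4 also shared a labelling batch between the times, and the part of that batch in these deviations was not tested. With the replicate number as a block in the fit the count was 536 (4.19%), 344 rising (2.69%) and 192 falling (1.5%), with 118 of the 128 among them. The counts were also sensitive to single arrays: 78 were called without 2 h replicate 1, and 34 rises without 1 h replicate 4. Of the 53 called genes named by the rule, 18 lost the call when some 1 array was left out, at adjusted p-values up to 0.208: ATF6, CCBE1, DLL1, ELF1, EPHA2, FOSB, FOXA1, FOXQ1, FZD8, ID1, MCL1, NFKBIZ, PER2, RELB, RUNX1T1, SMAD7, ZNF165 and ZNF483. In total RNA from whole cultures, fewer cells of a type and less RNA per cell cannot be told apart.

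**Figure D1:**
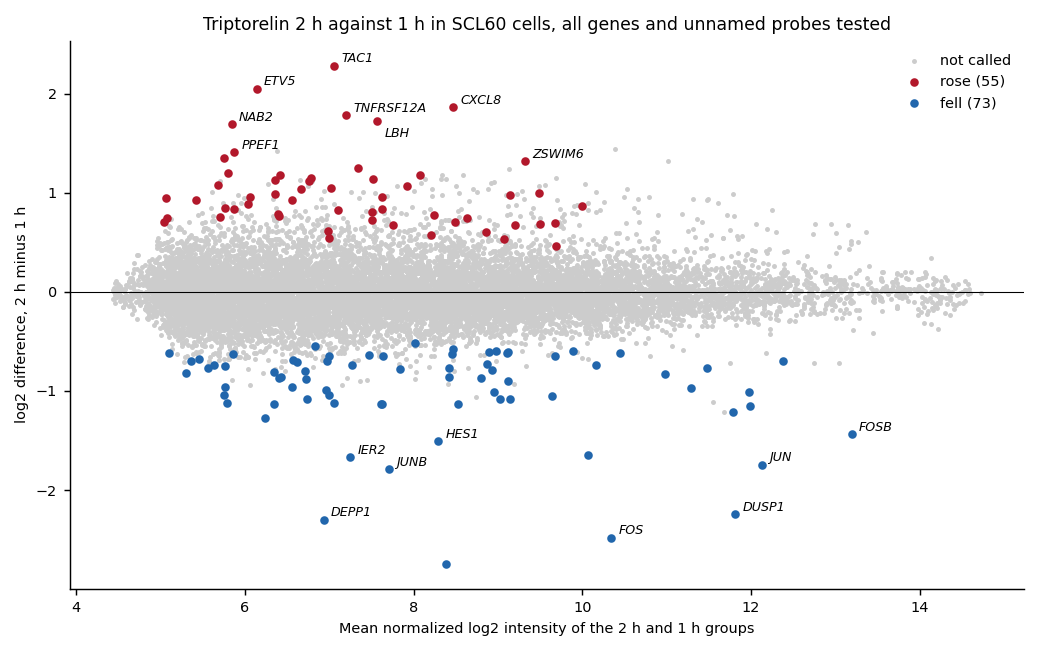
Each point is 1 gene or unnamed probe, with the mean normalized log2 intensity of the 2 h and 1 h groups on the x axis and the log2 difference (2 h minus 1 h) on the y axis; red points rose and blue points fell at a limma adjusted p under 0.05. The 55 rises reach 2.28 (TAC1) and the 73 falls reach -2.74, an unnamed probe that lies below FOS and DUSP1.

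The subunits of AP-1, the dimeric transcription factor built from FOS and JUN proteins, gave 4 falls and 0 rises among 10 tested members. The falls were 40% of the list, against 0.571% of everything tested, and the list median was -0.38. FOS had normalized log2 intensities of 10.04, 8.24, 9.07 and 9.05 in replicates 1 to 4 at 2 h, against 11.76, 11.46, 11.57 and 11.55 at 1 h. All 4 arrays at 2 h lay below all 4 at 1 h and were spread more widely (SD 0.74 at 2 h and 0.12 at 1 h); the log2 difference was -2.48 (SE 0.36, limma adjusted p 5.57e-06). JUN, the usual partner of FOS, had 11.25, 11.15, 11.60 and 11.03 at 2 h, against 13.15, 13.05, 12.92 and 12.90 at 1 h, a fall of 3.35-fold (adjusted p 4.89e-08). JUNB fell 3.46-fold, with a mean of 6.81 ± 0.68 at 2 h and 8.60 ± 0.49 at 1 h (SD, n = 4 each; adjusted p 0.000225 from limma). FOSB fell less, 2.71-fold, and its level at 2 h was still high, at 12.01, 12.99, 12.36 and 12.53, against 14.32, 13.96, 13.76 and 13.61 at 1 h (adjusted p 0.00649). Without 2 h replicate 1 FOSB had an adjusted p of 0.0589. ATF3, a further AP-1 family member, had a log2 difference of -0.62 with an adjusted p of 0.129, and it fell with the replicate block (adjusted p 0.00635). FOSL1 was not detected in either group, and JUND differed by -0.14 (adjusted p 0.87).

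**Figure D2:**
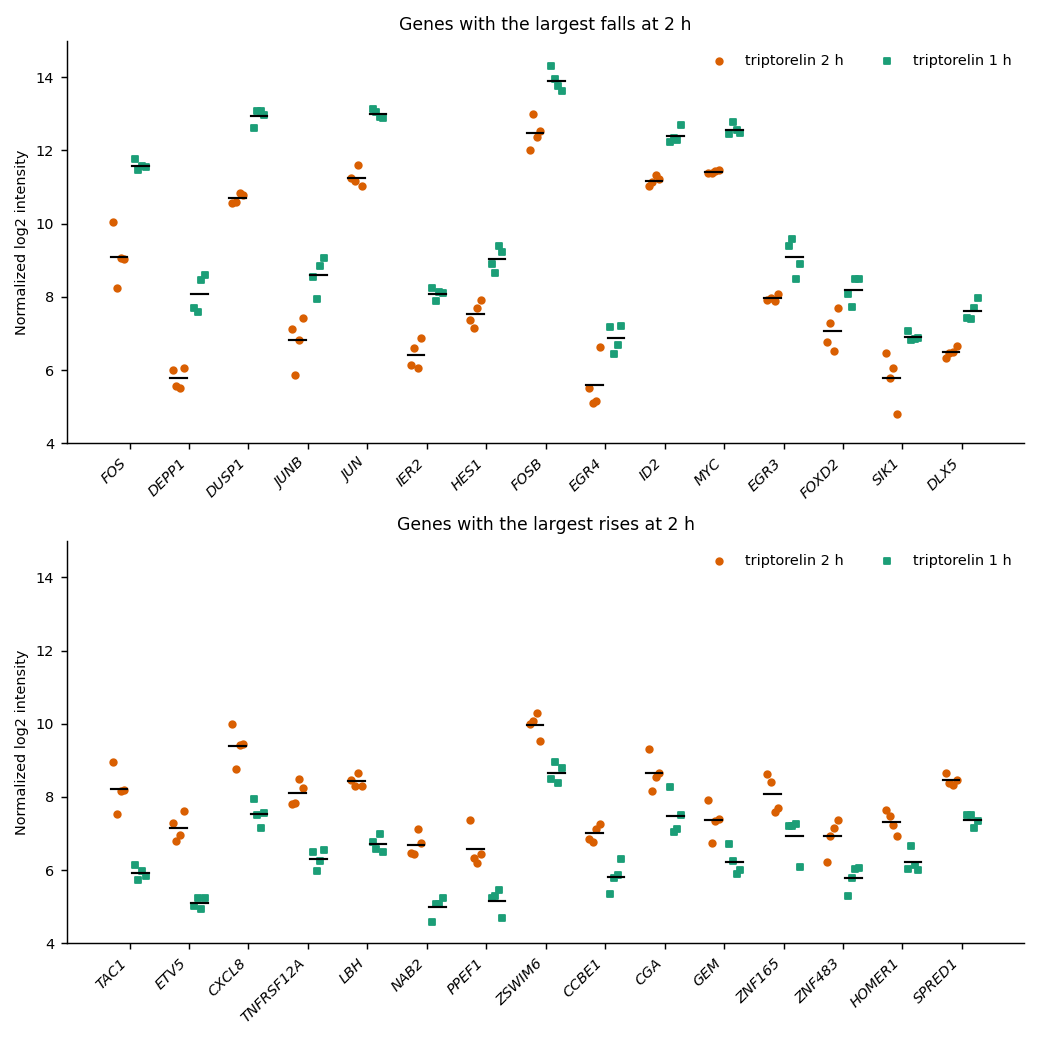
Normalized log2 intensity on every array for the 15 largest falls (top) and the 15 largest rises (bottom) chosen by the naming rule, with 2 h (orange circles) left of 1 h (green squares) and bars at the group means. Among these genes the 2 h and 1 h arrays overlap for EGR4, on 1 array at 2 h, and for CGA, and FOS, JUNB and SIK1 spread more widely at 2 h than at 1 h.

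Among the EGR zinc finger factors and their NAB corepressors, EGR3 and EGR4 fell and NAB2 rose. EGR3 had 7.91, 7.98, 7.88 and 8.07 at 2 h, against 9.40, 9.58, 8.49 and 8.89 at 1 h, with no overlap (log2 difference -1.13, adjusted p 0.000183). The other EGR3 probe gave 0.22 and was not called, so the probes disagree. EGR4 fell by 1.28 on the log2 scale and was detected on 1 of 4 arrays at 2 h and on 4 of 4 at 1 h. NAB2, which binds EGR proteins and represses their activity, had 6.47, 6.44, 7.12 and 6.74 at 2 h, against 4.58, 5.09, 5.08 and 5.25 at 1 h. NAB2 was not detected on any 1 h array, and its rise was at least 2.06-fold (log2 difference 1.69, adjusted p 6.97e-07). EGR1, the best known member of the family, was not called: it had 11.32, 10.28, 11.43 and 11.26 at 2 h, against 12.76, 10.39, 12.83 and 13.17 at 1 h. Replicate 2 was low in both groups and nearly level between them. The log2 difference was -1.21 with an adjusted p of 0.299, and EGR1 fell with the replicate block (adjusted p 0.00838). In vehicle cells at 1 h EGR1 stood 2.63 above untreated cells at 0 h on the log2 scale (adjusted p 0.0418), and at 1 h of triptorelin it differed from those vehicle cells by 1.27 (limma adjusted p 0.9999).

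Other immediate early genes divided into some that fell and some that were not called. IER2, a nuclear protein gene induced by growth factors, had 6.13, 6.61, 6.05 and 6.87 at 2 h, against 8.23, 7.88, 8.14 and 8.10 at 1 h (3.18-fold lower at 2 h, adjusted p 3.88e-05). IER5 fell by 1.08 on the log2 scale, and MCL1, an anti-apoptotic relative of BCL2, by 0.74 (adjusted p 0.0296), with -0.92 on its other probe. In the list of KLF and IER early genes 3 of 11 fell (27.3%, against 0.571% of everything tested) and 0 rose (median -0.62). With the replicate block 6 fell and 1 rose, against 1.5% and 2.69% of everything tested. KLF4 (-0.68), KLF6 (-0.62) and RHOB (-0.88) were among these falls, and IER3 (0.84) was the rise. Of the 3 orphan nuclear receptor genes of the NR4A family none was called on the probe that stood for the gene. NR4A2 gave -0.67 (adjusted p 0.308, and 0.0293 with the replicate block) and -1.17 on its other probe, which passed the threshold in a fit over all probes (adjusted p 0.0167), NR4A1 -0.40 (adjusted p 0.556, and 0.178 with the block) and NR4A3 -0.11. PTGS2, the inducible cyclooxygenase, averaged 10.12 at 2 h and 10.10 at 1 h (adjusted p 0.991). CCN1, a matrix-associated signalling protein of the SRF and YAP target list, gave -1.11 with overlapping arrays (adjusted p 0.173, and 0.00586 with the replicate block). An unnamed probe, ILMN_1743199, had the largest fall of all that were tested, with 7.23, 6.90, 6.72 and 7.20 at 2 h, against 10.11, 9.74, 9.25 and 9.93 at 1 h (adjusted p 3.3e-10).

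The feedback regulators of MAP kinase signalling gave 4 rises and 1 fall among 14 tested members (median 0.26). These were 35.7% of the list, against 1% of everything tested. The rises were SPRED1, SPRED2, SPRY4 and ERRFI1, and the fall was DUSP1. With the replicate block IER3 rose in place of ERRFI1, and DUSP5 fell beside DUSP1. DUSP1, of the dual-specificity phosphatases, had 10.56, 10.59, 10.83 and 10.78 at 2 h, against 12.62, 13.08, 13.07 and 12.98 at 1 h. The arrays of both groups were tightly spaced and far apart (log2 difference -2.25, SE 0.25, limma adjusted p 2.33e-08). DUSP5, an ERK-specific nuclear phosphatase, gave -0.93 with no overlap between the arrays (adjusted p 0.0578, and 0.00264 with the replicate block). SPRED1, which restrains the activation of RAF by RAS, had 8.65, 8.37, 8.33 and 8.47 at 2 h, against 7.52, 7.51, 7.15 and 7.35 at 1 h (2.10-fold higher at 2 h, adjusted p 6.75e-06). SPRED2 rose 1.78-fold, and the related inhibitor SPRY4 rose at least 1.18-fold and was detected on 3 of 4 arrays at 2 h and on none at 1 h. ERRFI1, an inhibitor of the EGF receptor, rose by 0.47 on the log2 scale (adjusted p 0.0339, and 0.0551 with the replicate block). The Sprouty genes SPRY2 (-0.16) and SPRY1 (-0.01) were not called. SPRED1, SPRED2, SPRY4 and ERRFI1 were all higher at 8 h of triptorelin than in vehicle cells at 8 h, by 1.49, 0.85, 2.00 and 2.12 on the log2 scale.

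Among the ETS factors, transcription factors that ERK signalling acts on, ETV5 rose. It had 7.30, 6.80, 6.95 and 7.61 at 2 h, against 5.03, 5.25, 4.93 and 5.25 at 1 h. It was detected on 4 of 4 arrays at 2 h and 0 of 4 at 1 h, and its rise was at least 2.86-fold (log2 difference 2.05, adjusted p 2.85e-09). Its other probe was not detected in either group and gave 0.19, as was the probe of its relative ETV4 (0.11). ELF1 rose by 0.53 (limma adjusted p 0.0271), and the other 9 tested members of the list of 11 were not called. The called members were 18.2% of the list, against 1% of everything tested (median of all 11 members 0.10).

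Calcium and cAMP response genes gave 5 rises and 1 fall among 15 tested members, with a median of 0.29. These were 40% of the list, against 1% of everything tested. TAC1 had 8.95, 7.52, 8.15 and 8.18 at 2 h, against 6.14, 5.73, 5.98 and 5.84 at 1 h (log2 difference 2.28, SE 0.27, limma adjusted p 5.38e-08). Its 2 other probes gave 2.16 and 1.73, so the 3 probes agree in direction; the last was not detected on any 1 h array. CGA had 9.31, 8.16, 8.53 and 8.65 at 2 h, against 8.27, 7.05, 7.14 and 7.50 at 1 h. Replicate 1 was the highest in both groups, so the groups overlapped although CGA was higher at 2 h in each of the 4 replicate numbers (2.26-fold, adjusted p 0.000225). GEM, a small GTPase that inhibits calcium channels, rose 2.21-fold, with 1.23 on another probe and 0.28 on one that was not detected. HOMER1, a scaffold protein of calcium signalling complexes, had 7.65, 7.48, 7.23 and 6.93 at 2 h, against 6.03, 6.67, 6.14 and 5.99 at 1 h, with no overlap (adjusted p 0.000579). The clock gene PER2 rose 1.75-fold (adjusted p 0.0254). SIK1, a salt-inducible kinase that restrains CREB coactivators, was the fall. It had 6.47, 5.79, 6.07 and 4.80 at 2 h, against 7.07, 6.83, 6.85 and 6.89 at 1 h (limma adjusted p 0.00163). It was detected on 3 of 4 arrays at 2 h. ARC gave -0.93 (adjusted p 0.124, and 0.00825 with the replicate block), and RGS2, a brake on Gq signalling, gave -0.10.

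Of the NF-kappaB subunits and inhibitors 2 of 13 tested were called (15.4%), and of their target genes 1 of 7 (14.3%), against 1% of everything tested. CXCL8, which encodes the neutrophil chemoattractant interleukin-8, had 10.00, 8.75, 9.42 and 9.45 at 2 h, against 7.93, 7.51, 7.16 and 7.56 at 1 h (adjusted p 0.00277), and its other probe gave 1.76. It was the only called member among 7 tested NF-kappaB target genes, while CCL2, another chemokine, gave 0.48 (adjusted p 0.613) and rose with the replicate block (adjusted p 0.0242). Among 13 subunits and inhibitors, RELB, a subunit of the non-canonical pathway, rose 1.79-fold (adjusted p 0.014; detected on 3 of 4 arrays at 2 h and 1 of 4 at 1 h) and NFKBIZ, a nuclear inhibitor family member, fell by 0.76 (adjusted p 0.0339). NFKB1 gave 0.44 and was called with the replicate block only, and NFKBIA and TNFAIP3, the classical feedback inhibitors, gave 0.37 and 0.11 and were not called. The kinase gene MAP3K8 rose 2.05-fold (adjusted p 0.00892). The chemokine gene CCL8 rose by 0.96 on the log2 scale and was detected on 4 of 4 arrays at 2 h and 2 of 4 at 1 h.

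The remaining large rises had varied products. TNFRSF12A, the receptor for the cytokine TWEAK, had 7.81, 7.84, 8.48 and 8.26 at 2 h, against 6.49, 5.96, 6.24 and 6.55 at 1 h (3.44-fold, adjusted p 2.59e-08). LBH, a transcription cofactor gene, rose 3.32-fold with tight arrays in both groups (8.46, 8.31, 8.67 and 8.30 at 2 h, against 6.77, 6.57, 6.99 and 6.48 at 1 h), while its other probe, detected on 1 array at 2 h, gave 0.43. PPEF1, a calcium-binding phosphatase gene, rose at least 1.91-fold on the probe tested and gave 0.58 on its other probe. THBS1, which encodes the matrix glycoprotein thrombospondin-1, averaged 6.42 ± 0.33 at 2 h (detected on 3 arrays) and 5.07 ± 0.43 at 1 h (detected on 1 array; SD, n = 4 each). It was the 1 called member of 18 SRF and YAP/TEAD targets (5.56%, against 1% of everything tested). With the replicate block 5 rose, VCL and ZYX among them, and CCN1 fell, against 2.69% and 1.5% of everything tested. ZSWIM6 had 10.00, 10.09, 10.29 and 9.53 at 2 h, against 8.50, 8.97, 8.38 and 8.79 at 1 h (adjusted p 2.5e-05). The Ephrin receptor gene EPHA2 rose 1.85-fold, with overlapping arrays (adjusted p 0.0116), and CD55, a complement regulator, rose 1.97-fold (adjusted p 0.0127). CCBE1 (1.18) and ZNF483 (1.13) also rose, but their means at 1 h (5.82 and 5.79) lay below those of untreated cells at 0 h (6.51 and 6.16), against which no test was made. Among the 55 rises 7 were genes named ZNF with a number, of 293 such genes tested (2.39%, against 0.43% of everything tested). Among the 73 falls 1 was such a gene (0.341%, against 0.571% of everything tested). This family was looked at after the values had been seen.

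Promoters are shown for 6 called genes of both directions, 3 that hold a cAMP response element (CRE) and 3 that hold an EGR motif, picked from the 8 CRE and 9 EGR holders among the called genes after their values had been seen. They are the RefSeq sequences (GRCh38.p14) from 250 bases before to 50 bases after the gene's start, in the direction of transcription, with the motif in capitals. CGA (chr6:87095057-87095356, minus strand) holds 2 copies of the palindromic CRE, which is TGACGTCA on both strands, at bases -142 to -135 and -124 to -117 from the start. EPHA2 (chr1:16156020-16156319, minus strand) has it at -51 to -44, and DUSP1 (chr5:172771146-172771445, minus strand), which fell, at -125 to -118. The EGR motif GCGGGGGCG, on either strand, lies at -62 to -54 in NAB2 (chr12:57088864-57089163, plus strand), at -43 to -35 in LBH (chr2:30231284-30231583, plus strand) and at -99 to -91 in SIK1 (chr21:43427082-43427381, minus strand), the one of these 3 that fell.
CGA: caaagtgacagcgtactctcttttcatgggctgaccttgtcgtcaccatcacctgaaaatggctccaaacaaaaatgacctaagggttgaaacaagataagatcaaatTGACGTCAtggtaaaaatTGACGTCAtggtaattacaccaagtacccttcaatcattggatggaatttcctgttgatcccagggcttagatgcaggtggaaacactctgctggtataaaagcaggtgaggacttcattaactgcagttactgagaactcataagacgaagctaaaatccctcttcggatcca
EPHA2: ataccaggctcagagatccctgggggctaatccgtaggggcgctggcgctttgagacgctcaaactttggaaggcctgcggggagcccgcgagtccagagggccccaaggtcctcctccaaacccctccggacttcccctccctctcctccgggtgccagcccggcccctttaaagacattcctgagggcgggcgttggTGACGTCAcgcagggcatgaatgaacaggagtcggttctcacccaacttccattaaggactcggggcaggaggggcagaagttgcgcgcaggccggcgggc
DUSP1: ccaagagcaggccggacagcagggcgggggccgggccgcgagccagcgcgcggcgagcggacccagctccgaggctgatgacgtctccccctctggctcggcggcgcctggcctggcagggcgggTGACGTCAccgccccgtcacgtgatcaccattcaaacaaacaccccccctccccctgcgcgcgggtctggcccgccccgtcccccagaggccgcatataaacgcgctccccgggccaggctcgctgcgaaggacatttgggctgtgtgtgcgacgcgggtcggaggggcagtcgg
NAB2: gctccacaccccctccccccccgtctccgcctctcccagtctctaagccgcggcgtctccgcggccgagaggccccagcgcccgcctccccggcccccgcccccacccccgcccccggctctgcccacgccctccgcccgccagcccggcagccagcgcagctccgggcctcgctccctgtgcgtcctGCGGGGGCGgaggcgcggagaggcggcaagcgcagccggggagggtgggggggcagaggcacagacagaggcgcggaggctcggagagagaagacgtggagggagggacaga
LBH: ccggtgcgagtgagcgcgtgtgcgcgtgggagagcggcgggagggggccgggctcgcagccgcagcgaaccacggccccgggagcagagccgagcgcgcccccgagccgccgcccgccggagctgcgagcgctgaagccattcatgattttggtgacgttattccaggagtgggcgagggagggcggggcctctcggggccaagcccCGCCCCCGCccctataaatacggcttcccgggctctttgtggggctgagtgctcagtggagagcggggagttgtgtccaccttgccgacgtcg
SIK1: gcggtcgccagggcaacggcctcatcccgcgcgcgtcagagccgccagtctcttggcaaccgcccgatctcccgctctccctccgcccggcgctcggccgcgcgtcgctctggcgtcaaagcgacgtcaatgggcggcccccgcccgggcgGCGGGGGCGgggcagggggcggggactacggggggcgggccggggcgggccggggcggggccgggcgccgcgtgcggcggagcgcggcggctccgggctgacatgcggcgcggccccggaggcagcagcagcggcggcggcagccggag

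Of the 48 named rises 40 had a promoter in the RefSeq table, and of the 64 named falls 53. The CRE was in 7 of the 40 (17.5%: CGA, EPHA2, GPR3, HAUS2, IFRD1, NUBPL and SYAP1) and in 1 of the 53 (1.89%, DUSP1), against 1.98% of all 27305 promoters and 3.57% of the 8634 promoters of genes tested. The AP-1 motif TGACTCA, on either strand, was in 3 of 40 rises (7.5%: CXCL8, GPR3 and LRRC8B) and in 0 of 53 falls, against 2.79% of the promoters of genes tested. The EGR motif was in 4 rises (10%) and 5 falls (9.43%), against 8.45%. The NF-kappaB motif was in 2 rises (5%) and 11 falls (20.8%), against 12.9%, and the CArG box in 0 of either, against 1.07%. These shares describe letters in the window, none was tested, and FOS, JUNB, IER2 and TAC1 held none of the 5 motifs there.

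Regulators of TGF-beta and BMP signalling and the ID genes gave 4 falls among 15 tested members and 0 rises (median -0.34). The falls were 26.7% of the list, against 0.571% of everything tested. With the replicate block 6 of the list fell, against 1.5% of everything tested. The products of the ID genes bind and inactivate basic helix-loop-helix factors. ID2 had 11.04, 11.13, 11.32 and 11.21 at 2 h, against 12.23, 12.35, 12.28 and 12.71 at 1 h. The log2 difference was -1.21 (limma adjusted p 2.72e-06). The other ID2 probe gave -0.78 and was not called in the limma fit over all probes (adjusted p 0.133). ID3 fell 2.02-fold and ID1 1.87-fold, and the second ID1 probe, detected on 1 array at 2 h, gave 0.25. SMAD7, the inhibitory SMAD, fell by 1.05 (limma adjusted p 0.00954) and was detected on 3 of 4 arrays at 2 h. Its other probe, detected on 1 array at 1 h, gave -0.15. HES1, a repressor downstream of Notch, had 7.38, 7.15, 7.71 and 7.91 at 2 h, against 8.90, 8.65, 9.40 and 9.23 at 1 h (2.85-fold lower at 2 h, adjusted p 3.95e-05). Its relative HEY1 fell by 0.77, with -1.003 on its other probe. In the list of SOX, HES and other developmental regulators 3 of 21 fell (14.3%) and 0 rose (median -0.39, 5 falls with the replicate block). In the Wnt and Notch list 2 of 23 fell (8.7%), the receptor FZD8 and the Notch ligand DLL1 (median -0.26). DLL1 had a limma adjusted p of 0.026, and 0.0552 with the replicate block, and was detected on 1 of 4 arrays at 2 h.

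Forkhead factor genes gave 4 falls (23.5%, against 0.571% of everything tested) and 0 rises among 17 tested members. Of all 22 tested genes with a FOX symbol, counted after the values had been seen, the same 4 fell (18.2%) and 0 rose. Of the 17, 15 lay lower at 2 h (median -0.23, against -0.02 for everything tested). With the replicate block 6 fell, against 1.5% of everything tested. FOXD2 had 6.77, 7.27, 6.52 and 7.71 at 2 h, against 8.09, 7.72, 8.50 and 8.48 at 1 h; the highest array at 2 h lay just under the lowest at 1 h (log2 difference -1.13, adjusted p 0.000224). FOXQ1 fell by 0.88 (detected on 3 of 4 arrays at 2 h), FOXD1 by 0.62 and FOXA1 by 0.61. FOXF2 gave -0.81 (limma adjusted p 0.0897) and fell with the replicate block. Of 25 tested HOX genes, a family looked at after the values had been seen, HOXC6 (-0.60) and HOXB2 (-0.60) fell (8%) and 0 rose. Other called falls with a homeobox, not taken from a list, were DLX5 (-1.13), ISL1 (-0.87), NKX3-2 (-0.80) and POU3F2 (-0.61). They were picked from the calls, and the share of all homeobox genes that fell was not counted. DLX5 had 6.33, 6.47, 6.49 and 6.66 at 2 h, against 7.41, 7.39, 7.70 and 7.96 at 1 h.

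MYC was the 1 fall among 9 tested members of its network (11.1%). DEPP1 and CDKN1B were 2 falls among 17 FOXO-type growth restraint genes (11.8%). CDKN1B was also the 1 fall among 9 CDK inhibitor and GADD45 genes (11.1%). These 3 lists had no rises, and 0.571% of everything tested fell. With the replicate block IRS2 of the FOXO-type list also fell and GADD45A rose. MYC, a transcription factor that drives growth, had 11.38, 11.39, 11.44 and 11.46 at 2 h, against 12.44, 12.79, 12.55 and 12.48 at 1 h. Its 2 h group was the tightest of the leading falls (SD 0.04), and the limma adjusted p was 1.02e-06. The other MYC probe gave -0.83 and was not called in the limma fit over all probes (adjusted p 0.207). CDKN1B, which encodes the cyclin-dependent kinase inhibitor p27, had 8.63, 8.40, 8.67 and 8.72 at 2 h, against 9.75, 9.63, 9.76 and 9.58 at 1 h (adjusted p 3.81e-07); its other probe gave -0.44 and was not called. DEPP1, a FOXO-regulated gene, fell 4.93-fold, with 6.01, 5.55, 5.51 and 6.06 at 2 h, against 7.70, 7.57, 8.47 and 8.59 at 1 h, and was detected on 2 of 4 arrays at 2 h (adjusted p 6.32e-07). ADM, a vasodilator peptide gene, fell 2.08-fold (limma adjusted p 6.24e-08) and GAS1, a growth arrest gene of the hedgehog pathway, 1.77-fold. The other GAS1 probe gave -0.66 and was not called in the limma fit over all probes (adjusted p 0.335). The G1/S list (32 tested), p53 targets (16), pro-apoptotic genes (19), ribosome biogenesis (22), cytosolic ribosomal proteins (24) and oxidative phosphorylation (20) had no called member; with the replicate block ORC6 of the G1/S list (0.52, adjusted p 0.0255) and ZMAT3 of the p53 targets (0.72, adjusted p 0.018) rose, and the other ORC6 probe gave 0.81 (adjusted p 0.0339 in the fit over all probes). The 30 genes of the G2/M list had no called member either, and 23 of them lay lower at 2 h (median -0.16). With the replicate block 3 of them fell, against 1.5% of everything tested. CCNF (-0.65), HJURP (-0.57) and GTSE1 (-0.52) were not in that list and were called falls, GTSE1 not with the replicate block. They were picked from the calls.

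Chaperones and other genes of the unfolded protein response in the endoplasmic reticulum lay higher at 2 h in all 17 tested members. Their median was 0.48, but 1 of them was called (5.88%, against 1% of everything tested). That was ATF6, a membrane-bound sensor of the response, with 10.42, 10.09, 9.96 and 9.61 at 2 h, against 9.51, 9.22, 9.40 and 9.18 at 1 h (log2 difference 0.69, adjusted p 0.0351). With the replicate block 6 rose, HSPA5, MANF, XBP1, SDF2L1 and DNAJB11 beside ATF6, against 2.69% of everything tested. HSPA5, the main chaperone of that compartment, had 10.37, 10.60, 10.95 and 10.15 at 2 h, against 9.44, 9.62, 10.73 and 8.71 at 1 h (adjusted p 0.313, and 0.00838 with the block). Replicate 3 at 1 h stood above the other 1 h arrays for HSPA5, for MANF (12.81, against 11.30 to 11.73 in the others) and for DDIT3. In hybridisation batches 1 and 2 taken alone the list had medians of 0.74 and 0.23. DDIT3, the stress factor CHOP, gave 1.24 with no overlap (10.14, 9.41, 9.58 and 9.87 at 2 h, against 8.37, 8.25, 9.37 and 8.04 at 1 h; adjusted p 0.173, and 0.00762 with the block). The list of 19 ATF4 and CHOP genes had 0 called members and 4 that rose with the block, against 2.69% of everything tested. Its median of 0.28 was 0.69 within batch 1 and -0.14 within batch 2. The part of the batch in this median was not tested.

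**Figure D3:**
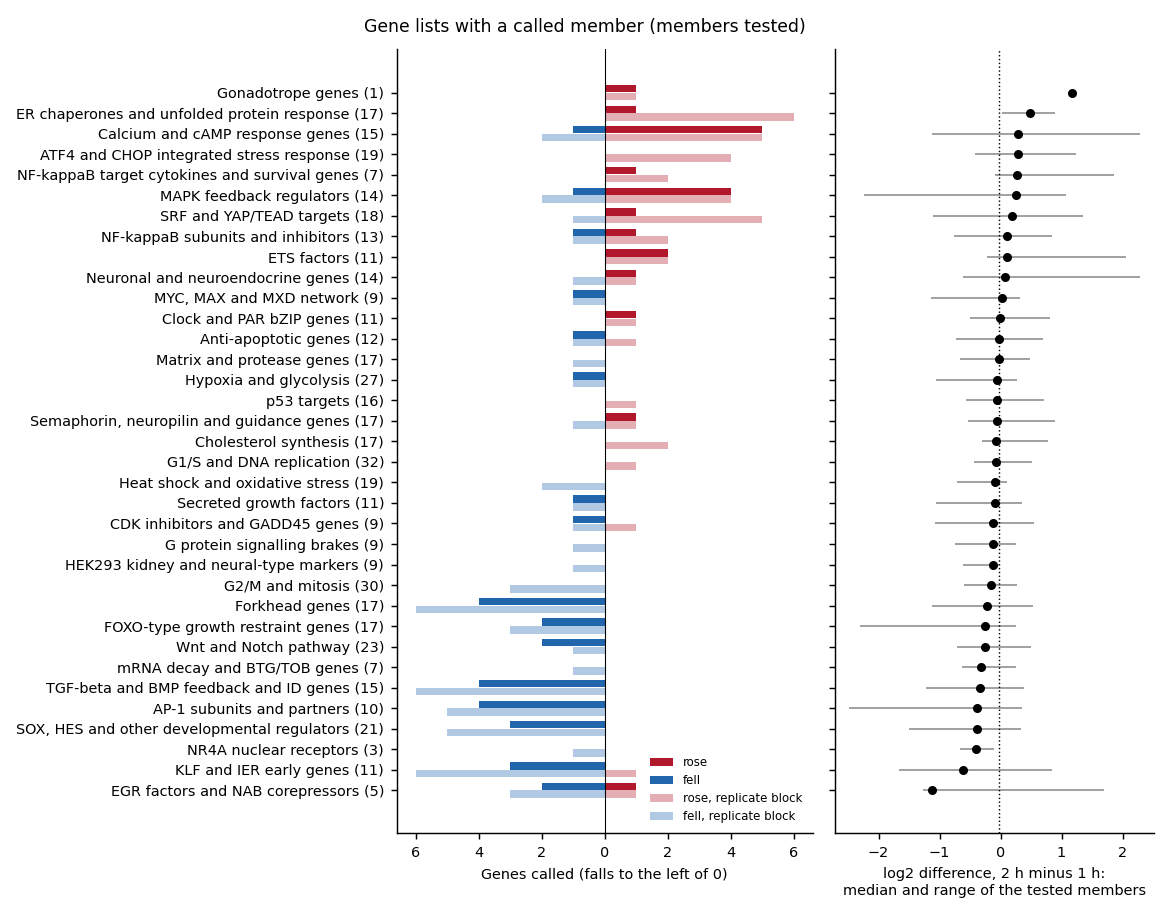
Left, number of genes that rose (red, right of 0) or fell (blue, left of 0) in each list. Dark bars are from the fit of all arrays and pale bars from the fit of the 8 compared arrays with the replicate block. Right, median and range of the log2 difference (2 h minus 1 h) of the tested members, with a dotted line at the median of everything tested. Lists are sorted by median; ER chaperones stand near the top at 0.48 and EGR factors with NAB corepressors at the bottom at -1.13, with 46 of 597 tested list members called over all 43 lists.

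Arrays outside the comparison showed how the called genes stood before and after it. At 0.5 h of triptorelin against untreated cells at 0 h, 26 genes and probes rose (0.203% of those tested) and 0 fell. Of the 73 falls between 1 h and 2 h, 14 were among those 26 (19.2% of the falls and 53.8% of the 26): FOS, FOSB, JUN, JUNB, EGR3, IER2, DUSP1, MCL1, NFKBIZ, ID1, ADM, GAS1 and the unnamed ILMN_1743199 and ILMN_1770085. Of the 55 rises 0 were among them, and their 0.5 h differences lay between -0.30 and 0.29. The other falls were not called at 0.5 h; FOXD2, DLX5 and CDKN1B, for example, gave -0.07, 0.14 and 0.29 there. In vehicle cells at 1 h against 0 h, 4 genes were called, all rising (0.0313%), and 1 of them, FOSB (1.73, adjusted p 0.0212), was among the 73 falls. The other 3 were EGR1 (2.63, adjusted p 0.0418), CCN1 (2.66, adjusted p 0.000992) and DUSP5 (1.61, adjusted p 0.00282), which were not called between 1 h and 2 h of triptorelin and fell with the replicate block. None of these 4 calls of vehicle was made when only the compared groups were fitted, and the part of handling in the later falls was not tested.

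At 8 h of triptorelin against vehicle at 8 h, 3159 genes and probes were called (24.7%), and 40 of the 55 rises were higher than vehicle (72.7%, against 11.2% of everything tested) and 1, NUBPL, was lower. The largest were TAC1 (6.47 on the log2 scale), CGA (6.24) and LBH (5.26). The falls divided: 14 were higher than vehicle at 8 h (19.2%, against 11.2% of everything tested) and 28 lower (38.4%, against 13.5% of everything tested). The 14 included FOS (4.01), FOSB (2.63), JUNB (2.29), DUSP1 (1.93) and JUN (1.08), which had fallen between 1 h and 2 h yet stood above vehicle at 8 h. The 28 included ID3 (-1.45), ISL1 (-1.29), DLX5 (-1.10), HOXC6 (-1.09), POU3F2 (-1.07), ZIC2 (-0.92), FOXD2 (-0.90) and CDKN1B (-0.88).

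**Figure D4:**
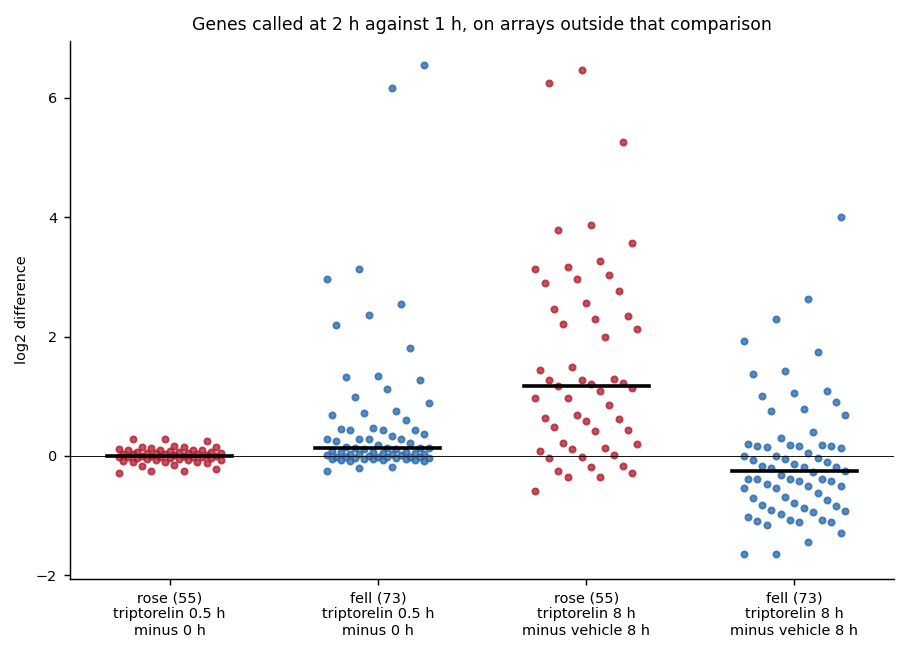
Each point is 1 of the 55 rises (red) or 73 falls (blue) between 1 h and 2 h, with its log2 difference on arrays outside that comparison on the y axis, at 0.5 h against 0 h (left pair) and at 8 h against vehicle (right pair), and bars at the medians. The rises sit near 0 at 0.5 h (median 0.01) and mostly above 0 at 8 h (median 1.18), while the falls reach 6.55 at 0.5 h (FOS) and have a median of -0.25 at 8 h.

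The group means over time placed the called genes in several patterns. FOS averaged 5.65 at 0 h, then 12.20 at 0.5 h, 11.59 at 1 h, 9.10 at 2 h, 9.15 at 8 h and 7.66 at 24 h of triptorelin. FOSB had its highest mean at 1 h, with 5.96, 12.12, 13.91, 12.47, 8.82 and 6.69 at the same 6 times. JUN averaged 11.07, 12.41, 13.00, 11.26, 12.00 and 11.51, so its lowest mean after triptorelin was that of 2 h. Set against the same 1 h vehicle arrays, FOS differed by 2.02 at 2 h and by 4.51 at 1 h, and JUN by -0.15 at 2 h and by 1.60 at 1 h; these comparisons share their arrays with each other and with the one between the times. CDKN1B, over the same times, averaged 9.50, 9.78, 9.68, 8.60, 8.55 and 9.09. FOXD2 averaged 8.39, 8.32, 8.20, 7.07, 7.04 and 7.36. Both were near their level at 0 h until 1 h and lay lower at 2 h. CGA averaged 5.03, 5.16, 7.49, 8.66, 11.18 and 11.42, and TAC1 5.14, 5.04, 5.92, 8.20, 11.77 and 9.40. ETV5 averaged 5.00, 4.83, 5.11, 7.16, 9.13 and 9.28. NAB2 had its highest mean at 2 h, with 4.75, 4.99, 5.00, 6.69, 6.20 and 5.64.

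**Figure D5:**
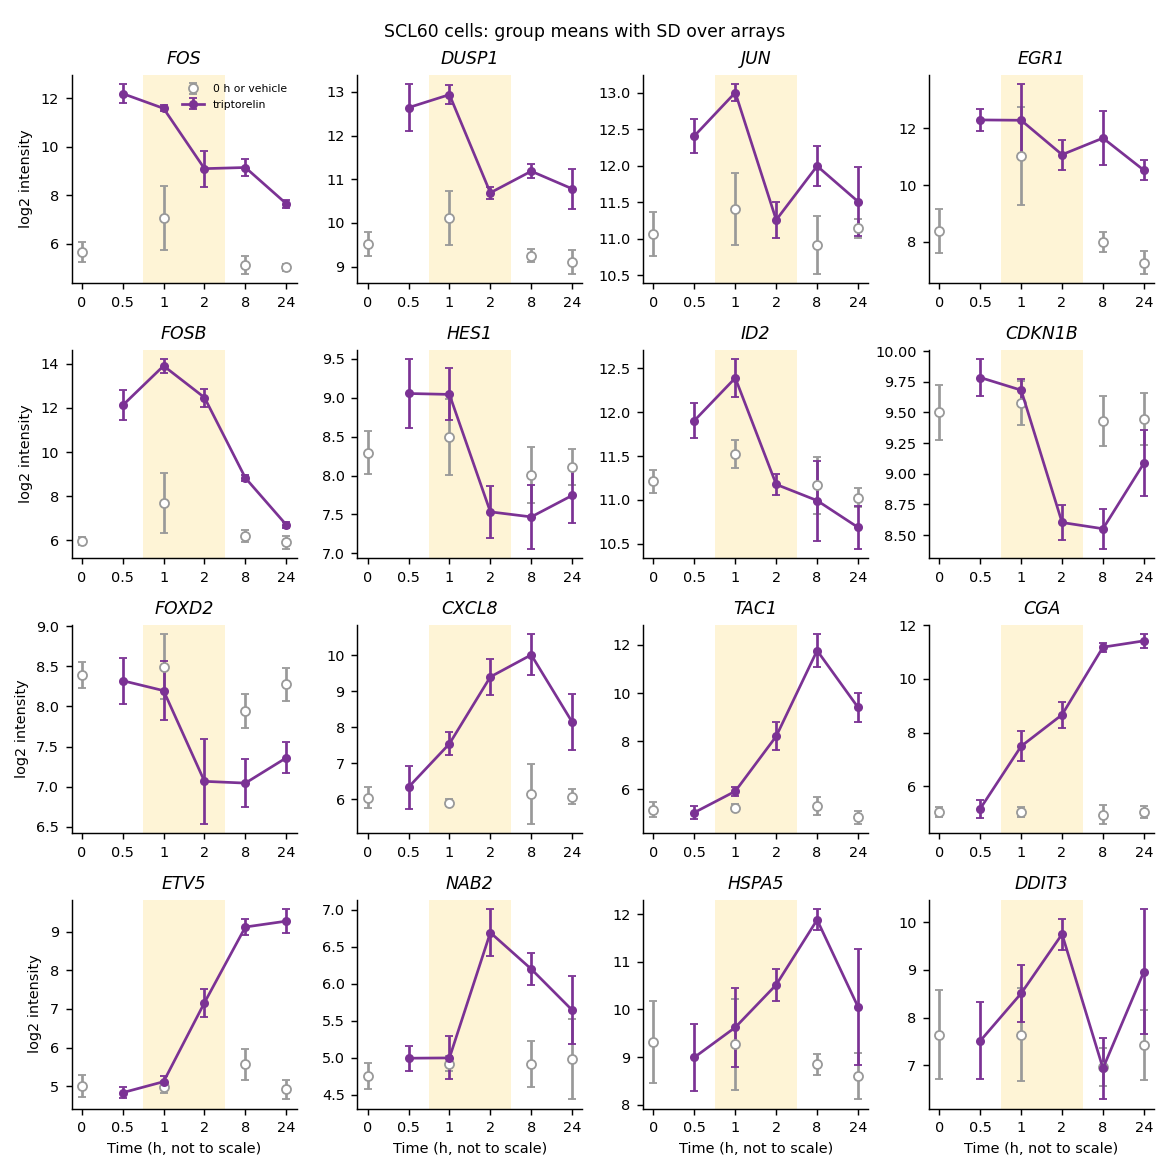
Mean normalized log2 intensity with SD over arrays for 16 genes in SCL60 cells at 0.5, 1, 2, 8 and 24 h of triptorelin (purple) and in untreated cells at 0 h or vehicle cells at 1, 8 and 24 h (open grey; 4 arrays a group, 3 at vehicle 1 h), with the 1 h and 2 h groups shaded and the time axis not to scale. FOS, DUSP1 and JUN are lower at 2 h than at 1 h and above vehicle at 8 h, HES1, CDKN1B and FOXD2 lie below the 0 h level at 2 h, and the means of CXCL8, TAC1, CGA and ETV5 are higher at each triptorelin time than at the one before it, between 0.5 h and 8 h.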

How the data were processed

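The authors deposited a table of signals before normalization, which was used here. Per the file headers it gives 48803 probes a linear intensity and a detection p-value on 55 arrays (Illumina HumanHT-12 v3). The authors' deposited normalized values, a signal that kept the order of probes on every array (Spearman correlation 1), served as an alternative; software and scale are not given in the sources used here. Intensities were corrected by normexp (limma 3.58.1, R 4.3.3; offset 16, negative controls inferred from detection p-values), log2-transformed and quantile normalized. Probes detected at p under 0.01 on at least 3 arrays were kept (16016), and the probe with the highest mean stood for a gene, leaving 10467 named genes and 2326 unnamed probes. The annotation gave 28098 probes 1 symbol, 13 several and 20692 none. A linear model with 1 mean per group over 14 groups was fitted to all 55 arrays, tested with moderated statistics (intensity trend) and adjusted by Benjamini-Hochberg. The script recovered changes seeded in simulated data.

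A group undetected on all its arrays has only a bound, given as "at least". Where only some arrays detected it, their number is given for genes such as EGR4, SIK1 and DLL1. Deviations of arrays with the same replicate number correlated at 0.33, 0.51, 0.42 and 0.37, each array best with its own number. Pairs with different numbers reached 0.31 (2 h replicate 2 with 1 h replicate 1). A fit of the 8 compared arrays alone, with the replicate number as a block, is therefore given where it changed the call of a gene or list described. The genes named were the 15 largest called rises and as many falls detected on every array of a group with all 2 h arrays on 1 side of the 1 h mean, up to 4 called and 2 other members of each of 43 lists (766 members, 597 tested), and GNRHR, FSHB, LHB and CGA; further genes were named after their values were seen. The members and lists were chosen with earlier results of these data known. All 27305 RefSeq promoters of full length were scanned; 6 of the called CRE and EGR holders, picked with values known, were shown. Alternatives were other corrections, normalizations, filters, blocks, array weights, thresholds and single arrays left out. The number of arrays limits the precision.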

Additional observations from a re-analysis of the deposited data

Results flagged for a closer look

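In 10 of 260 groups of 4 arrays examined, 1 array stood apart from the other 3 by Dixon's test. Chance gives this in about 5% of groups, and the share seen was not above that. EGR1 was low in replicate 2 of both groups, at 10.28 at 2 h (others 11.26 to 11.43) and 10.39 at 1 h (others 12.76 to 13.17). NR4A1, another immediate early gene, was low in the same replicate at 2 h, at 6.99 (others 7.88 to 7.97). NR4A2 was high in 2 h replicate 1, at 10.37 (others 9.38 to 9.51). RPS27, a ribosomal protein gene, was low in 2 h replicate 2, at 13.67 (others 14.10 to 14.18), and its 2 other probes differed between the times by -0.05 and 0.02. FOXD1 was low in 2 h replicate 1, at 8.65 (others 8.85 to 8.87). ZNF165 was low in 1 h replicate 4, at 6.09 (others 7.21 to 7.26), and its rise had an adjusted p of up to 0.0713 with 1 array left out. VCL was low in the same array, at 10.60 (others 11.10 to 11.17). DNAJB1, a heat shock cofactor, was low in 1 h replicate 3, at 8.32 (others 8.68 to 8.74), and RNF43, a Wnt feedback gene, in 1 h replicate 1, at 5.79 (others 5.98 to 5.99). The sources of these gaps were not tested.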

How the results depend on the processing

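All 128 genes and probes kept their sign under every alternative in which they were fitted. The alternatives used the arrays, or some of them, by which the 128 were chosen, so this is no separate support. Of the 128 called, 55 rising and 73 falling, the counts were 70, 32 and 38 when only the compared groups were fitted. Adding the replicate block to that fit gave 536, 344 and 192 (118 of the 128 shared). The counts were 300, 136 and 164 with the labelling batch as a block, and 357, 201 and 156 with array weights. They were 66, 24 and 42 at an adjusted p under 0.01, 43, 15 and 28 within hybridisation batch 1, and 37, 15 and 22 within batch 2, where 2 arrays stood in each group. With single arrays left out, the total ran from 78 to 124, the rises from 33 to 48 and the falls from 45 to 78. The lowest total and the lowest counts of rises and falls were those without 2 h replicate 1, and 34 rises were left without 1 h replicate 4. The 10 calls absent under the replicate block were FBRSL1, DLL1, CLK2P1, BTN3A2, GTSE1, ERRFI1, GCH1, TFPI2 and the unnamed ILMN_2408430 and ILMN_1660794. At 8 h against vehicle, 3159 genes became 1743 with only the compared groups. The 4 genes of vehicle at 1 h against 0 h became 2 without background correction and 0 with only the compared groups, and from 0 (without 1 h vehicle replicate 3) to 5 with single arrays left out; the 26 of 0.5 h ran from 23 to 34. The causes were not tested. Probes detected on fewer than 3 of the 55 arrays were not tested, while some probes detected in neither compared group were. A fold against an undetected group is a lower bound.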
